A study of Mus musculus with 6 samples.

Results

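Cholesterol synthesis, uptake and their regulation were followed through 28 genes in adult mouse liver. The genes were taken by symbol from the deposited expression table, where all 28 had a row among 24034. They were sorted by role into 8 genes of the early mevalonate steps, 12 of the late sterol steps and 8 of uptake and regulation. Liver was taken from C57BL/6 mice aged 25 weeks. The 3 wild type libraries (WT) carry the genotype label lncenc1wt/wt. The 3 mutant libraries (HO) carry the label lncenc13A/3A, read here as homozygous for an allele named 3A of Lncenc1, a gene for a long non-coding RNA. Strain, age and tissue are the same in both groups. No source used here says what the 3A allele changes, whether it was made in 1 line or more, or which substrain of C57BL/6 was used. The study's design text speaks of knockout mice, and the comparison asks how the adult liver differs in them.

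Cells make cholesterol from acetyl-CoA. The early steps build mevalonate and turn it into the isoprenoid farnesyl diphosphate. The late steps join farnesyl units into squalene, close its rings and trim lanosterol to cholesterol. The transcription factor SREBP-2, encoded by Srebf2, drives most of these genes. When sterols run low, the escort protein SCAP carries it from the endoplasmic reticulum to the Golgi, where proteases release its active part. When sterols are plentiful, the INSIG proteins hold SCAP back. The liver is a main site of this pathway, since it supplies lipoproteins and bile acids.

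Expression is given as FPKM, a count of fragments divided by the length of the transcript and by the size of the library, so levels can be compared between genes per unit length. The libraries were alike in summed FPKM (495570 to 518218), and the spacing of the low values gave relative depths of 19100000 to 24600000 read equivalents. The median over all genes in the table was 0.853 to 0.879 FPKM in WT and 0.742 to 0.788 in HO, and the median log2 change over the 13250 genes tested was -0.09, a shift that was not corrected. Of 10 lists of cell type markers, 5 had a summed level that was lower in every HO library than in every WT library. The 10 hepatocyte markers, all present in every library, summed to 47575 to 50504 FPKM in WT and 42399 to 46647 in HO. This sum is mostly Alb. Taken singly, 3 of the 10 were lower in every HO library, 4 were higher and 3 overlapped. Of all genes tested, 21.4% were lower and 6.42% higher in this way. The 9 stellate cell and fibroblast genes summed to 89.8 to 116.1 FPKM in WT and 61.4 to 77.5 in HO, the 9 endothelial genes to 69.6 to 79.7 and 62.2 to 64.3, the 6 bile duct genes to 24.2 to 27.6 and 20.1 to 23.0, and the 6 red blood cell genes to 644.5 to 667.4 and 319.2 to 547.5. The bile duct sum is mostly Spp1, and of the 4 bile duct genes tested 3 overlapped between groups. The sums of the remaining 5 lists overlapped between groups. The 9 Kupffer cell and macrophage genes summed to 97.8 to 186.5 FPKM in WT and 84.9 to 109.3 in HO, the 8 lymphocyte genes to 1.77 to 2.35 and 1.78 to 2.25, and the 6 neutrophil genes, with Ly6g listed at 0, to 1.87 to 4.64 and 2.98 to 8.05. The 5 adipocyte genes, mostly Car3, summed to 1986 to 3029 and 1540 to 1988. Among them Cfd was at 49.5, 56.2 and 44.0 FPKM in WT and at 4.42, 0.986 and 12.2 in HO. The groups of Cfd were apart (limma adjusted p = 0.0637), and those of Car3 and Fabp4 overlapped. Of the adipocyte list Adipoq and Plin1 were listed at 0 in all libraries, and of the adrenal cortex list, the other tissue with strong sterol synthesis, Cyp11b2, Hsd3b1 and Akr1b7 were. In bulk tissue, fewer cells of a type and less RNA per cell cannot be told apart, and the part of cell makeup in the results below was not tested. The labels do not say that each library came from its own animal, so the p-values below measure only the spread among the samples, which may be technical.

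Promoter sequences were searched because the genes share a known regulator whose classical binding word, the sterol regulatory element, is short. RefSeq (GRCm38.p6) promoter windows were found for 22 of the 28 genes, in 28 windows. Sqle, Fdft1, Soat2, Fdps, Stard4 and Npc1 had no entry. The 250 bases before each start site were read on both strands. The word TCACNCCAC was present in 1 window, that of Hmgcs1, and in 1.05% of all 32851 windows. With up to 1 mismatch it was found in 11 of 28 windows (39.3%) and in 20.7% of all windows. CCAAT, the word of the SREBP partner NF-Y, was in 20 of 28 (71.4%) against 33.9%, and GGGCGG, that of Sp1, in 22 of 28 (78.6%) against 32.7%. The comparison windows include non-coding genes. In these genes 1 match to the first word overlapped a CCAAT (Msmo1) and 1 a GGGCGG (Insig2). A match is a string of letters and not a shown binding site. The 4 windows printed are those of Hmgcs1 and Acat2 of the early steps, Cyp51 of the late steps and Insig1 of the regulators, the first, second and last of these with large differences of expression and Cyp51 with a small one. Each is written 5′ to 3′ on the strand of its gene and ends at the base before the start site, with capitals marking TCACNCCAC or its complement (exact in Hmgcs1, with 1 mismatch in the others). They lie at chr13:119690101-119690350, plus strand (Hmgcs1), chr17:12960726-12960975, minus strand (Acat2), chr5:4104698-4104947, minus strand (Cyp51) and chr5:28071162-28071411, plus strand (Insig1).
Hmgcs1 promoter: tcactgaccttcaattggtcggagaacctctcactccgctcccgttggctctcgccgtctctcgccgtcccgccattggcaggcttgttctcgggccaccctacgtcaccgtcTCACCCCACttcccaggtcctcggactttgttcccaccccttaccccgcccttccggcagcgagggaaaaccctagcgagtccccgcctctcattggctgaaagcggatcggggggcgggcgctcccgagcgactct
Acat2 promoter: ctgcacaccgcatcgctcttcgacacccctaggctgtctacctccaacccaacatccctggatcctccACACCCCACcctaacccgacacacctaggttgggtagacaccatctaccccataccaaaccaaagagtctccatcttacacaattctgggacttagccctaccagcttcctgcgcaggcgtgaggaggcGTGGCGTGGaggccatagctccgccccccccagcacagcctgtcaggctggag
Cyp51 promoter: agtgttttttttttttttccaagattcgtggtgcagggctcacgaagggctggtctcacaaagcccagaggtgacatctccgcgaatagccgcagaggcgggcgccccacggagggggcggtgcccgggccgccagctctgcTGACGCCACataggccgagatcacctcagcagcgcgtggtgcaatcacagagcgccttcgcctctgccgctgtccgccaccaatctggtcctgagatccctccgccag
Insig1 promoter: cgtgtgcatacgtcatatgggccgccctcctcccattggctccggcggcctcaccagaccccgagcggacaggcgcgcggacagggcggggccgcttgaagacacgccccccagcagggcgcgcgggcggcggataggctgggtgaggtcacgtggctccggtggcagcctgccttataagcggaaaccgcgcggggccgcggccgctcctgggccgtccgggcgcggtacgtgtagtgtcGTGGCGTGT
The exact word in Hmgcs1 began 137 bases before the start site. A further match in Hmgcs1, with 1 mismatch and left in lower case, began 220 bases before the start site. The matches in Acat2 began 182 and 53 bases before it, that in Cyp51 108 bases and that in Insig1 9 bases before it.

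Early mevalonate genes were lower in HO livers than in WT livers for 7 of 8 genes (87.5%), but none of the 28 genes passed the threshold over all genes. Of all genes tested, 64.6% had a negative change, as had 23 of the 28 (82.1%). The 8 early genes together held 491.0 ± 65.9 FPKM in WT and 283.3 ± 53.1 in HO (mean ± SD, n = 3 libraries each), or 57.7% of WT. The late genes held 768.8 ± 81.4 and 597.3 ± 111.6 (77.7%), and those of uptake and regulation 358.9 ± 35.3 and 282.6 ± 24.6 (78.7%). Single abundant genes weigh heavily in these sums. Nearly all of the difference in the last sum is that of Insig1, with means of 149.6 FPKM in WT and 75.5 in HO. Hmgcs1 had means of 163.8 and 55.1 in the early sum, and Sc5d 228.6 and 127.8 in the late sum. Hmgcs1, Mvd, Acat2 and Insig1 stood lowest against WT, at 33.7%, 38.1%, 46.0% and 50.5% of the WT mean, while Idi1, Sqle, Tm7sf2, Scap and Npc1 had higher means in HO.

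Changes were tested with limma on log2(FPKM + 0.5), a scale that understates the change of low genes, with Benjamini-Hochberg adjustment over all 13250 genes at 0.05. All 28 genes were far enough expressed to enter the fit. Over all genes 1.14% were called, 43 higher and 108 lower, and 0 of the 28. With median-of-ratios scaling the split was 67 higher and 66 lower, again with 0 of the 28. At an unadjusted p under 0.05, 12 of the 28 were lower (42.9%), against 16.5% of all genes, and 1 was higher, against 5.01%. These shares move with the shift: under median-of-ratios scaling 10 of the 28 were lower, against 9.50% of all genes, and 2 were higher, against 9.05%. In 11 of the 28 (39.3%) every HO library lay below every WT library, as in 21.4% of all genes. In 1, Scap, every HO library lay above, as in 6.42% of all genes. The median log2 change was -0.25 for the 28 genes and, by role, -0.55 for the early steps, -0.21 for the late steps and -0.25 for uptake and regulation. Under median-of-ratios scaling these were -0.16 for the 28 genes and -0.45, -0.11 and -0.15 by role. Genes of 1 pathway vary together, so these shares describe the genes and are no test of them.

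**Figure D1:**
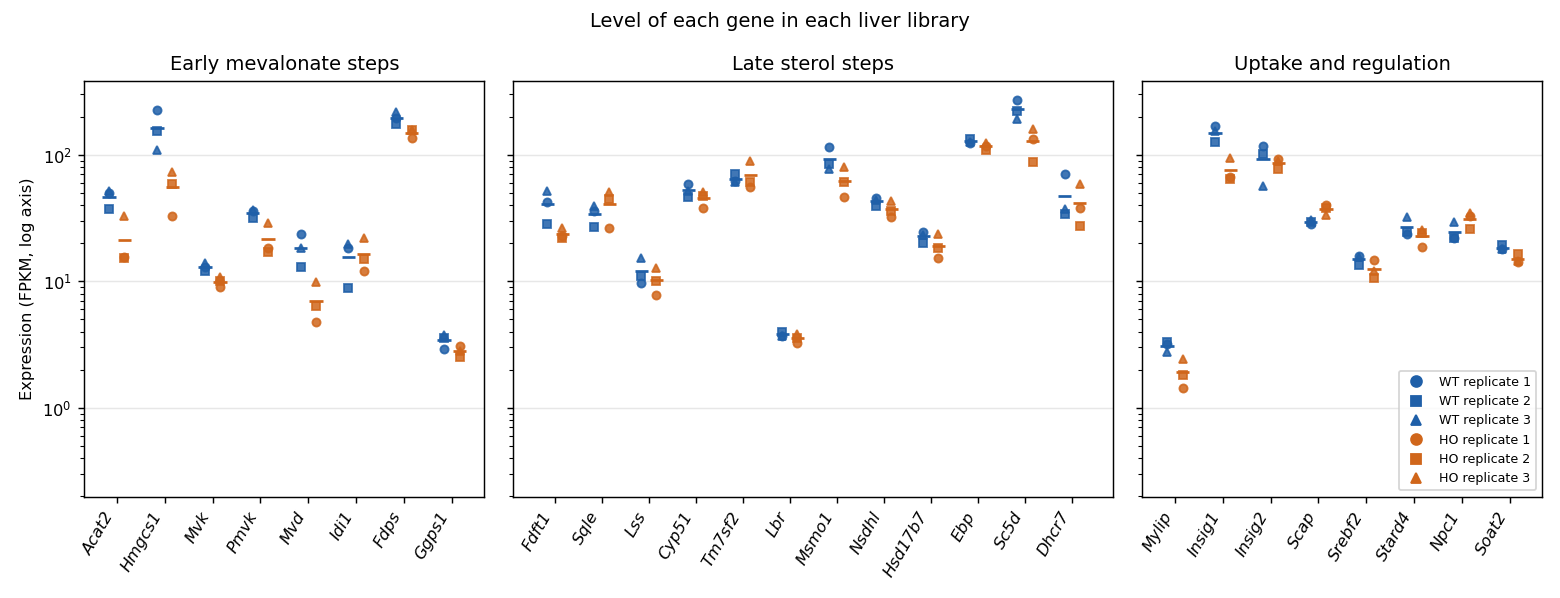
Level of each of the 28 genes (FPKM, log axis) in each library, by role; symbols are single libraries (blue WT, orange HO) and bars the group means. The group means differ most, relative to WT, in Hmgcs1, Mvd, Acat2 and Insig1, and Idi1, Sqle and Tm7sf2 overlap widely.

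The pathway opens with Acat2, the cytosolic thiolase that joins 2 acetyl-CoA units, and Hmgcs1, the synthase that adds another. Acat2 was at 49.7, 37.3 and 51.8 FPKM in WT and at 15.7, 15.2 and 33.0 in HO. The groups did not overlap, and HO replicate 3 lay close to WT replicate 2. The log2 change was -1.18 ± 0.30 (SE, limma adjusted p = 0.0932). Reads of Acat2 can be shared with its neighbour Acat3, whose transcript is 97.7% identical over 1477 bases and which had 100.7 to 140.4 FPKM, and with Tcp1, so its level is uncertain.

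Hmgcs1 had 227.7, 154.7 and 109.2 FPKM in WT and 33.1, 58.8 and 73.6 in HO. All HO values were below all WT values, with a wide spread in both groups. Its log2 change, -1.57 ± 0.35, was the most negative of the 28, with an adjusted p of 0.0778 in limma. An antisense gene, Gm48342, shares 557 exonic bases with it, or 12.1% of its exonic length, and was at 32.7, 19.3 and 13.9 FPKM in WT and at 9.87, 9.98 and 12.8 in HO. The antisense gene had the same order of libraries as Hmgcs1, and no source used here says if reads were assigned by strand.

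Mevalonate is then phosphorylated by Mvk and Pmvk and decarboxylated by Mvd. Mvd was at 23.5, 13.1 and 18.2 FPKM in WT and at 4.74, 6.33 and 9.79 in HO. The groups were apart, with HO replicate 3 nearest to WT. The log2 change was -1.35 ± 0.29 (SE, limma adjusted p = 0.0750). Pmvk was at 35.6, 31.6 and 36.9 FPKM in WT and at 18.3, 17.0 and 29.1 in HO, where again replicate 3 stood closest to the WT libraries. Its log2 change was -0.72 ± 0.20 (limma adjusted p = 0.110). Mvk differed less, with 12.1 to 14.0 FPKM in WT, 8.99 to 10.9 in HO and a log2 change of -0.37 (limma adjusted p = 0.123).

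Idi1 turns the product of Mvd into its isomer, and Fdps and Ggps1 build the longer farnesyl and geranylgeranyl chains. Idi1 did not follow its neighbours in the pathway: it was at 18.4, 8.79 and 19.6 FPKM in WT and at 12.1, 14.9 and 21.9 in HO. WT replicate 2 was the lowest of all 6 libraries and the groups overlapped. The log2 change was 0.10 with a 95% interval from -0.68 to 0.88, which still allows a change in either direction. Near-identical copies of Idi1 were expressed too, among them Gm13502, identical over 684 bases, at 7.36 to 13.9 FPKM. Fdps was the most abundant early gene in HO, at 135.0 to 157.2 FPKM against 175.8 to 218.2 in WT (log2 change -0.39, limma adjusted p = 0.115). The copy Gm3571, 98.9% identical to Fdps over 1062 bases, was at 17.4 to 20.9 FPKM in WT and 10.5 to 16.3 in HO. Ggps1, the least abundant early gene, was at 2.90 to 3.77 FPKM in WT and 2.502 to 3.06 in HO, with overlap.

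**Figure D2:**
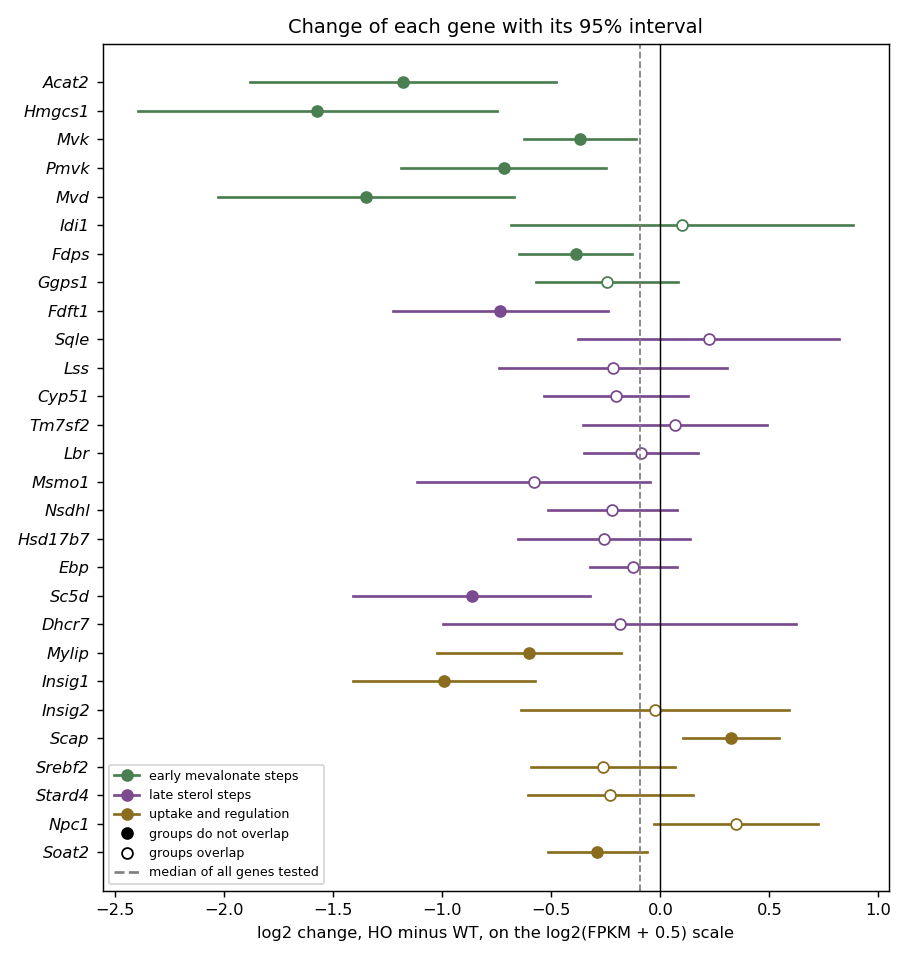
Log2 change of each gene (HO minus WT, on the log2(FPKM + 0.5) scale) with its 95% interval from limma, in pathway order; filled points are genes whose groups do not overlap, and the dashed line is the median of all genes tested (-0.09). In 15 of the 28 genes the interval includes 0.

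Of the 12 late genes 10 had a negative change (83.3%), against 7 of 8 early genes and 64.6% of all genes. Fewer late genes were lower at an unadjusted p under 0.05, 3 of 12 (25.0%), against 16.5% of all genes. Of the early genes 6 of 8 (75%) were lower in this way. In 2 of 12 late genes (16.7%) all HO libraries were below WT, a smaller share than the 21.4% of all genes. In the early genes this held for 6 of 8. Fdft1, which joins 2 farnesyl units into squalene and commits them to sterols, was at 42.1, 28.3 and 51.5 FPKM in WT and at 22.8, 21.8 and 26.2 in HO. The HO libraries were tight and all below WT, while WT replicate 2 lay near them. Its log2 change was -0.73 ± 0.21 (SE, limma adjusted p = 0.115). Fdft1 shares 774 exonic bases (18.3%) with Ctsb on the other strand, which was at 113.2 to 121.7 FPKM in WT and 84.5 to 93.8 in HO, so part of its signal could belong to that gene.

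The next enzymes, Sqle, Lss and Cyp51, overlapped between groups. Sqle, the squalene epoxidase, was at 36.1, 26.8 and 39.0 FPKM in WT and at 26.5, 44.7 and 50.6 in HO. Both the lowest and the highest value were in HO, and the log2 change was 0.22 with a 95% interval from -0.38 to 0.82. Lss, which closes the ring to lanosterol, had 9.61 to 15.3 FPKM in WT and 7.83 to 12.8 in HO. Cyp51, the lanosterol demethylase, had 46.2 to 59.0 and 38.0 to 51.1, with a log2 change of -0.20 and an interval from -0.53 to 0.13.

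The sterol reductase step can be done by Tm7sf2 or by Lbr, a protein of the inner nuclear membrane. Tm7sf2 was the more abundant of the pair, at 61.1 to 70.4 FPKM in WT and 55.7 to 90.0 in HO. Lbr was at 3.70 to 3.98 and 3.26 to 3.82. Neither differed beyond its spread, with 95% intervals of -0.36 to 0.49 and -0.35 to 0.17 on the log2 scale. Tm7sf2 shares 12.1% of its exonic length with Vps51 on the same strand.

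Msmo1, Nsdhl and Hsd17b7 remove the methyl groups at carbon 4. Msmo1 was at 115.3, 84.4 and 77.2 FPKM in WT and at 46.0, 60.4 and 80.2 in HO. HO replicate 3 lay above WT replicate 3, and the log2 change was -0.58 ± 0.23 (SE, limma adjusted p = 0.201). Nsdhl had 39.7 to 45.6 FPKM in WT and 32.2 to 43.3 in HO, and Hsd17b7 20.1 to 24.7 and 15.2 to 23.7. Both overlapped between groups.

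Ebp, Sc5d and Dhcr7 finish the sterol. Sc5d, the desaturase and the most abundant of the late genes in both groups, was at 271.3, 223.2 and 191.2 FPKM in WT and at 134.0, 88.3 and 161.1 in HO. All HO libraries were below all WT libraries, and the log2 change was -0.86 ± 0.23 (SE, limma adjusted p = 0.102). Ebp, the isomerase, was at 123.4 to 134.1 and 109.5 to 124.5 FPKM, with an interval of the log2 change from -0.32 to 0.07. Dhcr7, the last reductase of this branch, was at 69.9, 34.3 and 37.5 FPKM in WT and at 37.8, 27.4 and 58.7 in HO. WT replicate 1 and HO replicate 3 stood above the rest, and the log2 change of -0.19 had an interval from -0.995 to 0.62.

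Insig1, which is both a target of SREBP-2 and its brake, had the smallest p of the 28. It was at 170.0, 125.6 and 153.1 FPKM in WT and at 66.6, 64.8 and 95.1 in HO. The groups were well apart, with the highest HO library below the lowest WT library. The log2 change was -0.99 ± 0.18 (SE, limma adjusted p = 0.0526). Its paralogue Insig2, with a promoter known to respond to other signals, was at 118.0, 102.0 and 56.2 FPKM in WT and at 93.4, 77.1 and 89.4 in HO. The HO values lay inside the WT range, and the interval of the log2 change ran from -0.64 to 0.59.

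Srebf2 itself was at 15.9, 13.6 and 15.5 FPKM in WT and at 14.8, 10.5 and 12.1 in HO. HO replicate 1 lay among the WT libraries, and the log2 change was -0.26 with an interval from -0.59 to 0.07 (limma adjusted p = 0.328). Scap went the other way, at 28.5, 29.4 and 30.6 FPKM in WT and at 39.8, 38.0 and 33.6 in HO. All 3 HO values were above WT, with a log2 change of 0.32 ± 0.09 (limma adjusted p = 0.117). An overlapping gene on the other strand, 5830462I19Rik, was at 1.09 to 1.18 FPKM in WT and 1.33 to 1.70 in HO.

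Of the genes of uptake, transport and storage, Mylip encodes a ubiquitin ligase that marks lipoprotein receptors for breakdown. It was low, at 3.20, 3.33 and 2.78 FPKM in WT and 1.43, 1.83 and 2.45 in HO, and the groups were apart by a small margin at replicate 3. The log2 change was -0.60 ± 0.18 (SE, limma adjusted p = 0.123). Npc1, which lets cholesterol leave lysosomes, was at 22.2, 22.0 and 29.3 FPKM in WT and at 33.0, 25.7 and 34.9 in HO. Only HO replicate 2 lay inside the WT range, and the log2 change was 0.35 ± 0.16 (limma adjusted p = 0.268). Soat2, the enzyme that esterifies cholesterol in hepatocytes, was at 17.9 to 19.5 FPKM in WT and 14.2 to 16.4 in HO, without overlap (log2 change -0.29, limma adjusted p = 0.153). The sterol carrier Stard4 had 23.8 to 32.04 and 18.7 to 25.5 FPKM, with overlap.

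The HO libraries differed among themselves in these genes. HO replicate 3 was the highest of the 3 HO libraries in 22 of the 28 genes and the lowest in 1, while over all genes tested it was the highest in 32.7% and the lowest in 27.0%. HO replicate 1 was the lowest in 16 of the 28, against 36.5% of all genes. In WT, replicate 2 was the lowest in 15 of the 28, against 31.7% of all genes. The median difference from the WT mean over the 8 early genes was -0.72, -0.69 and -0.28 on the log2 scale in HO replicates 1, 2 and 3, and 0.08, -0.14 and 0.12 in WT. Over the 12 late genes it was -0.43, -0.24 and 0.01 in HO, so HO replicate 3 stood with the WT libraries there. Over the genes of uptake and regulation the 3 HO libraries were alike, at -0.19, -0.17 and -0.17. Without HO replicate 3 the median change of the late genes was -0.36 in place of -0.21. Without HO replicate 1 it was -0.12.

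**Figure D3:**
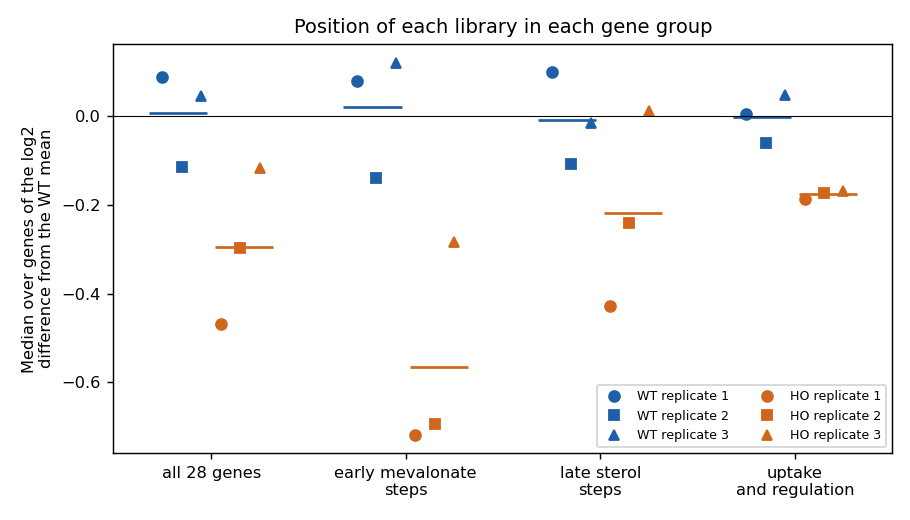
Median over the genes of a group of the log2 difference between each library and the WT mean (log2(FPKM + 0.5) scale), for all 28 genes and for each role; symbols are libraries and bars group means. The early genes separate the groups, from -0.72 to -0.28 in HO and from -0.14 to 0.12 in WT, while in the late genes HO replicate 3 (0.01) lies among the WT libraries.

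Other genes around the pathway were read from lists. Of 14 further genes of sterol synthesis and transport, 1 passed: Lipa, the lysosomal acid lipase that frees cholesterol from the esters of lipoproteins, at 85.8, 84.6 and 73.0 FPKM in WT and 47.5, 41.0 and 47.2 in HO. With the groups far apart, the log2 change of Lipa was -0.83 ± 0.10 (SE, adjusted p = 0.0284 in limma). The call held under 11 of the 16 alternatives and was lost with the replicate number as a block and when replicate 1 or 2 of WT, or 2 or 3 of HO, was left out. Erg28, a scaffold of the demethylation enzymes, was at 55.9 to 66.7 FPKM in WT and 35.9 to 48.9 in HO, and Por, which passes electrons to Cyp51, at 78.0 to 123.7 and 136.5 to 208.3 (limma adjusted p = 0.0894 and 0.0912). Of these 14 genes 6 were lower (42.9%) and 2 higher at an unadjusted p under 0.05, against 16.5% and 5.01% of all genes. Their median log2 change was -0.21, against -0.09 for all genes.

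None of 14 genes that process SREBP or sense sterols passed. At an unadjusted p under 0.05, 2 were lower (14.3%) and 0 higher, against 16.5% and 5.01% of all genes. Their median was -0.12, against -0.09 for all genes. Tmem41b, a lipid scramblase of the endoplasmic reticulum, had the smallest p of the 14. It was at 8.46 to 9.88 FPKM in WT and 5.42 to 6.38 in HO (limma adjusted p = 0.0526). The branches that use mevalonate products for ubiquinone, dolichol and protein prenylation were nearly level, with a median of -0.04. Of these 13 genes 0 passed, and 2 were lower at an unadjusted p under 0.05 (15.4%, against 16.5% of all genes). Among 12 targets of the sterol sensor LXR and genes of sterol disposal, 1 passed, the oxysterol hydroxylase Cyp7b1. It was at 53.9 to 96.0 FPKM in WT and 190.0 to 306.9 in HO. Of the 12, 3 were lower (25.0%) and 2 higher at an unadjusted p under 0.05, against 16.5% and 5.01% of all genes. Their median log2 change was -0.02, with single changes from -2.10 to 1.97. The call of Cyp7b1 held under 9 of 16 alternatives. It was lost with the block, with no filter and when any library but WT replicate 3 was left out. Cyp7a1, the rate-limiting enzyme of classic bile acid synthesis, was at 49.1, 54.4 and 29.1 FPKM in WT and at 6.70, 7.53 and 17.1 in HO, which are apart (limma adjusted p = 0.0526).

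Targets of the sister factor SREBP-1, which drives fatty acid synthesis, were read in the same way. Of 16 measured, Me1 and Pcyt2 fell and none rose. At an unadjusted p under 0.05, 7 were lower (43.8%), against 16.5% of all genes. The median log2 change was -0.49, against -0.09 for all genes. Pcyt2, of phosphatidylethanolamine synthesis, was at 289.3 to 303.7 FPKM in WT and 212.1 to 228.0 in HO (limma adjusted p = 0.0496), and its call held under only 4 of 16 alternatives and was lost whichever library was left out. That of Me1, the malic enzyme, held under 10 and was lost with the block, with no filter and when replicate 1 or 2 of WT, or 2 or 3 of HO, was left out. Summed over the 18 listed genes the level was 2734, 2530 and 3250 FPKM in WT and 1264, 1121 and 2219 in HO, so HO replicate 3 was again the HO library nearest to WT. Of 20 acute phase genes 15 were higher at an unadjusted p under 0.05, against 5.01% of all genes. Socs3 and Saa4 rose (limma adjusted p = 0.0261 and 0.0372), calls that held under 12 and 9 of 16 alternatives. Both were lost with no filter and when replicate 1 or 2 of WT, or 3 of HO, was left out. That of Saa4 was also lost without HO replicate 2, without a trend and with the block. The 20 genes summed to 10272 to 13123 FPKM in WT and to 13634, 32177 and 29671 in HO replicates 1, 2 and 3, where replicate 1 was nearest to WT. Of the 10 hepatocyte markers 1 rose, Cps1, an enzyme of the urea cycle (limma adjusted p = 0.0422); its call held under 9 of 16 alternatives and was lost under the same 7 as that of Saa4.

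Sterol genes follow feeding and the time of day in liver, and neither is given in the labels. Of 14 genes of fasting and feeding none passed. At an unadjusted p under 0.05, 4 were lower (28.6%) and 1 higher, against 16.5% and 5.01% of all genes. The fasting hormone gene Fgf21 was at 7.58 to 9.63 FPKM in WT and at 2.95 to 5.49 in HO (limma adjusted p = 0.0747). Of 17 clock genes 1, Per1, was lower at an unadjusted p under 0.05 (5.88%, against 16.5% of all genes). It was at 7.30 to 10.4 FPKM in WT and 5.03 to 6.16 in HO (limma adjusted p = 0.0972). WT replicate 3 stood apart from the other WT libraries in the clock genes. The 18 listed clock genes summed to 201.9, 220.1 and 348.7 FPKM in WT and to 279.7, 296.2 and 274.3 in HO, and Dbp, a clock output gene, was at 22.5, 21.7 and 84.7 in WT and at 48.2, 44.0 and 60.8 in HO. Without WT replicate 3, 13 of the 28 sterol genes were lower at an unadjusted p under 0.05 and 0 passed. The part of feeding, daytime and the acute phase in the sterol results was not tested.

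Hmgcs1 also lies in a part of chromosome 13 where a neighbour differed strongly. It runs from 119690379 to 119708260 on the plus strand (mm10), 22.2 Mb from Lncenc1, and Idi1, Ggps1 and Mylip are on the same chromosome. Nnt, the mitochondrial transhydrogenase gene 281.4 kb from Hmgcs1, was at 26.1, 45.0 and 24.4 FPKM in WT and at 1.14, 0.794 and 1.48 in HO. Of 7 other protein-coding genes within 1 Mb of Hmgcs1 that were tested, Nnt alone passed (limma adjusted p = 0.00721), and it did so under all 16 alternatives. Nim1k, 1.83 kb away, was at 0.645 to 0.827 FPKM in WT and 0.202 to 0.599 in HO, and Paip1, between Nnt and Hmgcs1, at 18.5 to 22.1 and 20.04 to 26.9. The substrain C57BL/6J is known to carry a deletion in Nnt that other C57BL/6 substrains lack. A difference of genetic background near Hmgcs1 and the 3A allele cannot be told apart here for this gene. The substrain of each group is not given, so the same limit holds for the other genes, on chromosome 13 and elsewhere.

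**Figure D4:**
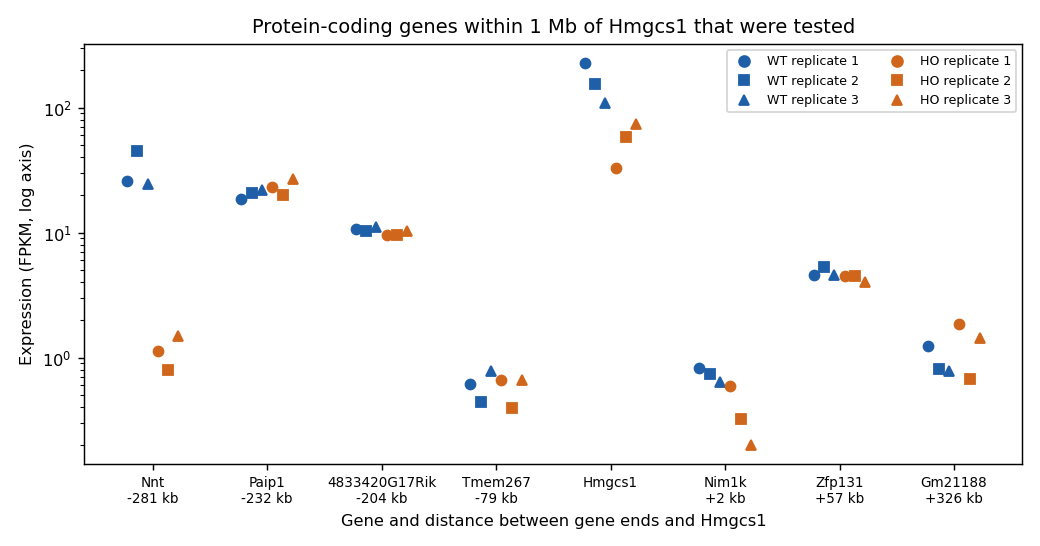
Level (FPKM, log axis) in each library of Hmgcs1 and of the 7 other tested protein-coding genes within 1 Mb of it, ordered by distance in kb (negative before Hmgcs1). Nnt and Hmgcs1 have clear gaps between WT and HO, and Paip1 and Tmem267 overlap. In Nim1k and Zfp131 every HO library also lies below every WT library, by narrow margins, as in 21.4% of all genes.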

How the data were processed

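RNA from flash-frozen liver was made into strand-preserving libraries, per the labels' protocols. FPKM values, computed by the authors, were deposited as 1 table. The tools listed in the submitters' processing notes are HISAT2, HTSeq, StringTie and DESeq2, with build mm10 and no versions or roles. FPKM is relative to all other genes of a library. Only 30.7% to 32.9% of low values (under 20 read equivalents) were whole multiples of the step worth 1 read (tolerance 0.02 reads), so no count model was fitted.

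The 13250 genes whose mean over the 6 libraries reached 0.5 FPKM entered limma 3.58.1 (R 4.3.3) on log2(FPKM + 0.5), with 2 groups, no block, eBayes with a trend and two-sided tests. The members and lists were chosen with earlier results of these data known. All 28 members are named. From other lists come counts or summed levels, genes among the 3 with the smallest p and markers at 0. Dbp, Car3, Cfd, Fabp4, Alb and the neighbours and copies of members were chosen after their values were seen. The 16 alternatives changed the pseudocount, filter, scaling or variance model, added a block or left out 1 library; array weights used statmod 1.5.0. For Lipa, Cyp7b1, Me1, Pcyt2, Socs3, Saa4, Cps1 and Nnt, which are not members, the alternatives were added after seeing the data. The fit was tested on simulated data. Positions, overlaps and copies (BLAST 2.17.0, at least 95% identity over 200 bases) came from GENCODE mouse release M21. A planned protein comparison was not made. Python 3.11.15, numpy 2.4.6, pandas 2.3.3 and matplotlib 3.10.9 were used.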

Additional observations from a re-analysis of the deposited data

How the results depend on the processing

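Of the 28 genes, 0 passed the threshold under 15 of 16 alternatives. With array weights 2 passed, Hmgcs1 (log2 change -1.46, limma adjusted p = 0.0406) and Insig1 (-0.86, limma adjusted p = 0.0426), among 941 of all genes. The number of the 28 that were lower at an unadjusted p under 0.05 was 10 to 13 under the alternatives, against 12. The number of all genes called, 151, was 100 with a pseudocount of 0.1, 40 with no filter, 77 without a trend and 25 with the replicate block, and 6 to 259 when 1 library was left out. Leaving out replicate 1, 2 or 3 of WT gave 9, 6 and 259, and of HO 203, 35 and 15. Libraries of the same number did not deviate together (correlations of deviations from the group mean 0.07, -0.03 and 0.01), so the block was not read as a pairing; under it 0 of the 28 passed and 11 were lower at an unadjusted p under 0.05. The median change of uptake and regulation was -0.15 under median-of-ratios scaling, -0.16 under quantile normalization, and -0.28 to -0.18 when 1 library was left out. Under the same scalings that of the late steps was -0.11 and -0.11 (and -0.12 with array weights) in place of -0.21, and that of all 28 genes -0.16 and -0.16 in place of -0.25. Directions that turned belonged to genes with overlapping groups. Lbr moved to 0.0041 under median-of-ratios scaling and 0.0023 under quantile normalization, and Insig2 to 0.0781 and 0.0677. When single libraries were left out, the log2 change ranged from -0.34 to 0.19 for Insig2, from -0.47 to 0.13 for Dhcr7, from -0.26 to 0.30 for Idi1 and from -0.14 to 0.20 for Tm7sf2. The cause was not tested. Precision is limited by the 3 libraries a group, and the reads behind single FPKM values were not recovered.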
